A study of Mus musculus with 6 samples.

Results

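The genes described here are 4 members of the Ly6 family of surface antigens, Ly6a, Ly6c1, Ly6c2 and Ly6e, followed through the cell classes of mouse lung, with and without leukaemia. The members are the 4 listed gene symbols among the 32285 features of the deposited tables, and all 4 symbols were found. They were selected on measured values of these libraries, namely the higher Ly6c1 level in general capillary cells and aerocytes of leukaemic lungs. Their difference between AML and Control lungs is therefore given as a description, with fold, error and library values and no p-value.

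Ly6 proteins are small, cysteine-rich proteins that a glycosylphosphatidylinositol (GPI) anchor holds in the outer leaf of the plasma membrane. Ly6a, also called Sca-1, marks mouse blood stem cells and is found on many endothelial cells. Ly6c1 and Ly6c2 are near-identical copies whose products antibodies to Ly6C commonly detect together, Ly6c1 being typical of endothelial cells and Ly6c2 of monocytes and some lymphocytes. Ly6e is expressed in many cell types and is known for its part in placental cell fusion and in restricting or promoting virus entry. Ly6a, the Ly6c genes and Ly6e can be induced by interferons in many mouse cells.

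Single-cell RNA sequencing had measured non-haematopoietic niche cells in 3 libraries of normal lungs (Control 1, 2 and 3) and 3 libraries of lungs infiltrated by Trp53 R172H/Δ acute myeloid leukaemia (AML 1, 2 and 3). Strain, age, sex, the route of leukaemia and treatment are not given in the sources used here, nor is whether each library came from its own animal, so spread between libraries may be partly technical. Lungs were digested with Liberase and DNaseI and the niche cells isolated by sorting. Leukaemia cells, sorted by their GFP, were then mixed into the AML suspensions only, as 20% tumour and 80% niche cells. The 10x Chromium kit counts the 3′ ends of polyadenylated transcripts, each by a unique molecular identifier (UMI), so levels were not divided by gene length.

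Filters kept 23745 of 28516 barcodes, 1718 to 3673 cells in a Control library and 4496 to 5790 in an AML library. Control 1 was the deepest, with a median of 8323.5 UMIs per cell, against 3723 to 5504 in the other 5 libraries. In general capillary cells its gene counts differed from those of Control 2 and Control 3 with 26.6 and 25.3 units of chi-square for each degree of freedom, against 6.23 between those 2. Among the AML libraries the value was 17.8 between AML 1 and AML 3 and 4.31 and 3.08 for the other pairs. It grows with the counts compared, and AML 2 had 202 such cells against 1613 in AML 1 and 2264 in AML 3. Any pair of libraries had 1 to 24 barcodes in common. Free RNA, read from surfactant transcripts in endothelial cells, made up an estimated 0.33 to 0.87% of the UMIs of Control cells and 1.27 to 1.45% of those of AML cells. At those shares free RNA would carry at most 34.0 CPM of Ly6a, 30.2 of Ly6c1, 0.138 of Ly6c2 and 14.4 of Ly6e, where CPM is the number of UMIs of a gene per 1000000 UMIs of a class in a library.

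Cells fell into 29 clusters, named from markers among which no Ly6 gene was used, and the 4 genes were kept out of the clustering. General capillary cells, the progenitor-like cells of the exchange capillaries, were clusters 3, 4 and 7. All 8 of their markers were above 10 CPM, and the lowest was Aplnr, the apelin receptor, at 67.8 CPM. Cluster 3, led by haemoglobin genes, held most cells of the class in Control 1, cluster 4 in Control 2, Control 3 and AML 1, and cluster 7 in AML 2 and AML 3. Aerocytes, the flat capillary cells of gas exchange, were cluster 0, and their 8 markers were all above 10 CPM as well. In all, 5 clusters stayed unnamed: 2, 5 and 12, closest to general capillary cells but led in part by markers of other vessels, 6, which carried platelet RNA, and 26, of which 463 of 465 cells came from Control 3. The sort was meant to remove blood cells, yet lymphocytes, monocytes and neutrophils were found in both groups. A blood progenitor class held 2839 cells of the AML libraries, to which leukaemia cells had been added, and 3 Control cells.

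The 4 genes lie within 156.9 kb of mouse chromosome 15 (mm10, GENCODE M21): Ly6e at chr15:74955051-74959905 on the plus strand, and Ly6a at chr15:74994877-74998031, Ly6c1 at chr15:75044018-75048830 and Ly6c2 at chr15:75108158-75111970 on the minus strand. Over 822 aligned bases the Ly6c1 and Ly6c2 transcripts were 97.6% identical, with a longest identical run of 188 bases. Of the 411 stretches of 90 bases in the last 500 bases of Ly6c1, 35 occurred unchanged in Ly6c2, so most but not all 3′ reads can tell the copies apart. Ly6a was 84.6% identical to Ly6c1 and 84.0% to Ly6c2, with 0 shared stretches of that length.

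The promoter windows of Ly6c1 and Ly6c2 are shown because the levels of these near-identical copies lay far apart in vessels, where Ly6c1 was abundant and Ly6c2 was hardly counted. Each window runs from 250 bases before to 50 after the transcription start (RefSeq, GRCm38.p6, minus strand), chr15:75048788-75049087 for Ly6c1 and chr15:75111922-75112221 for Ly6c2, and capitals mark AGGAAGT, a core letter string of ETS factors. Ly6c1 and Ly6c2 had 2 windows each, of which 1 is printed and described here. Ly6a and Ly6e were not among the windows.
Ly6c1: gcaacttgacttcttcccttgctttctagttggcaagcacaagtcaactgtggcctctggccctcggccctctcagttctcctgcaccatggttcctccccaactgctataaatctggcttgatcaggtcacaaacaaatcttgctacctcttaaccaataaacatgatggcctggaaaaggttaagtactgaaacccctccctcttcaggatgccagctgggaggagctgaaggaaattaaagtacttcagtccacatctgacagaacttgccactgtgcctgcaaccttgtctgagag
Ly6c2: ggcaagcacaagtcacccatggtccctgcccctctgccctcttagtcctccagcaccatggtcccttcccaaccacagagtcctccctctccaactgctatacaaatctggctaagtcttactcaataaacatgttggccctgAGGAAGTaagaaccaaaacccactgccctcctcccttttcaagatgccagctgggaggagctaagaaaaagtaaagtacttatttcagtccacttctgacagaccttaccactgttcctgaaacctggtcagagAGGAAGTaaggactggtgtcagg
The windows were 78.2% identical over 266 aligned bases. AGGAAGT, chosen after the windows had been read and searched on both strands, began 107 bases before and 27 bases after the Ly6c2 start and did not occur in the Ly6c1 window. At least 1 copy was present in 9.35% of all 32851 windows of this length. The interferon-response letters GAAA followed after 2 bases of any kind by GAAA (in 3.44% of windows) and TTCNNNGAA (in 8.3%), searched on both strands, occurred in neither. A match in letters is a description and does not show binding.

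Among Control lungs, Ly6a was highest in aerocytes at 4917 ± 1770 CPM (mean ± SD, n = 3 libraries). Venous endothelial cells (2770 ± 978), arterial endothelial cells (2570 ± 147, 2 libraries of at least 20 cells) and general capillary cells (2496 ± 1080) followed, and the library ranges of neighbours in this order overlapped. Adventitial fibroblasts, the connective tissue cells around larger vessels, came next with 1278 ± 22.3 CPM (n = 2), below every library of the general capillary class. B lymphocytes had 263.9 ± 107 CPM and T or NK lymphocytes 164.2 ± 1.64 (n = 2 each). Ciliated, alveolar type 2, smooth muscle, alveolar fibroblast and alveolar duct myofibroblast classes lay between 57.78 and 162.1 CPM, with overlapping ranges.

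Ly6c1 had the same leading class, aerocytes at 2876 ± 1090 CPM in Control lungs. General capillary (1409 ± 728), arterial (1366 ± 201, n = 2) and venous cells (1066 ± 416) formed a group whose library ranges overlapped. Adventitial fibroblasts were lower at 419.2 ± 26.6 CPM (n = 2), and alveolar type 2 cells lower again at 128.0 ± 39.8. The smallest Control level of Ly6c1 was that of B lymphocytes, 12.46 ± 9.03 CPM (n = 2), close to the 5.93 to 7.56 CPM that free RNA would carry in Control lungs.

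Ly6e spread more evenly over classes. Aerocytes had 2831 ± 591 CPM, B lymphocytes 2059 ± 271 (n = 2), general capillary cells 1986 ± 448, venous cells 1741 ± 406 and arterial cells 1464 ± 231 (n = 2). T or NK lymphocytes (882.2 ± 4.73, n = 2), alveolar type 2 cells (668.9 ± 42.0) and ciliated cells (424.1 ± 104) had intermediate levels. Fibroblasts and muscle were lowest, from 234.7 ± 48.8 in adventitial fibroblasts (n = 2) to 78.54 ± 33.9 in alveolar duct myofibroblasts (n = 2).

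The order of Ly6c2 was a different one. T or NK lymphocytes led with 202.7 ± 104 CPM (n = 2), B lymphocytes had 55.46 ± 67.8 (n = 2), and alveolar type 2 cells had 30.09 ± 8.88. The 4 vessel classes lay between 1.035 and 1.926 CPM. No UMI was counted in adventitial fibroblasts, alveolar fibroblasts, smooth muscle, alveolar duct myofibroblasts or ciliated cells of any Control library with at least 20 cells of the class. Of the 17 Ly6c2 UMIs in Control 3 B lymphocytes, 14 were in 1 cell.

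**Figure D1:**
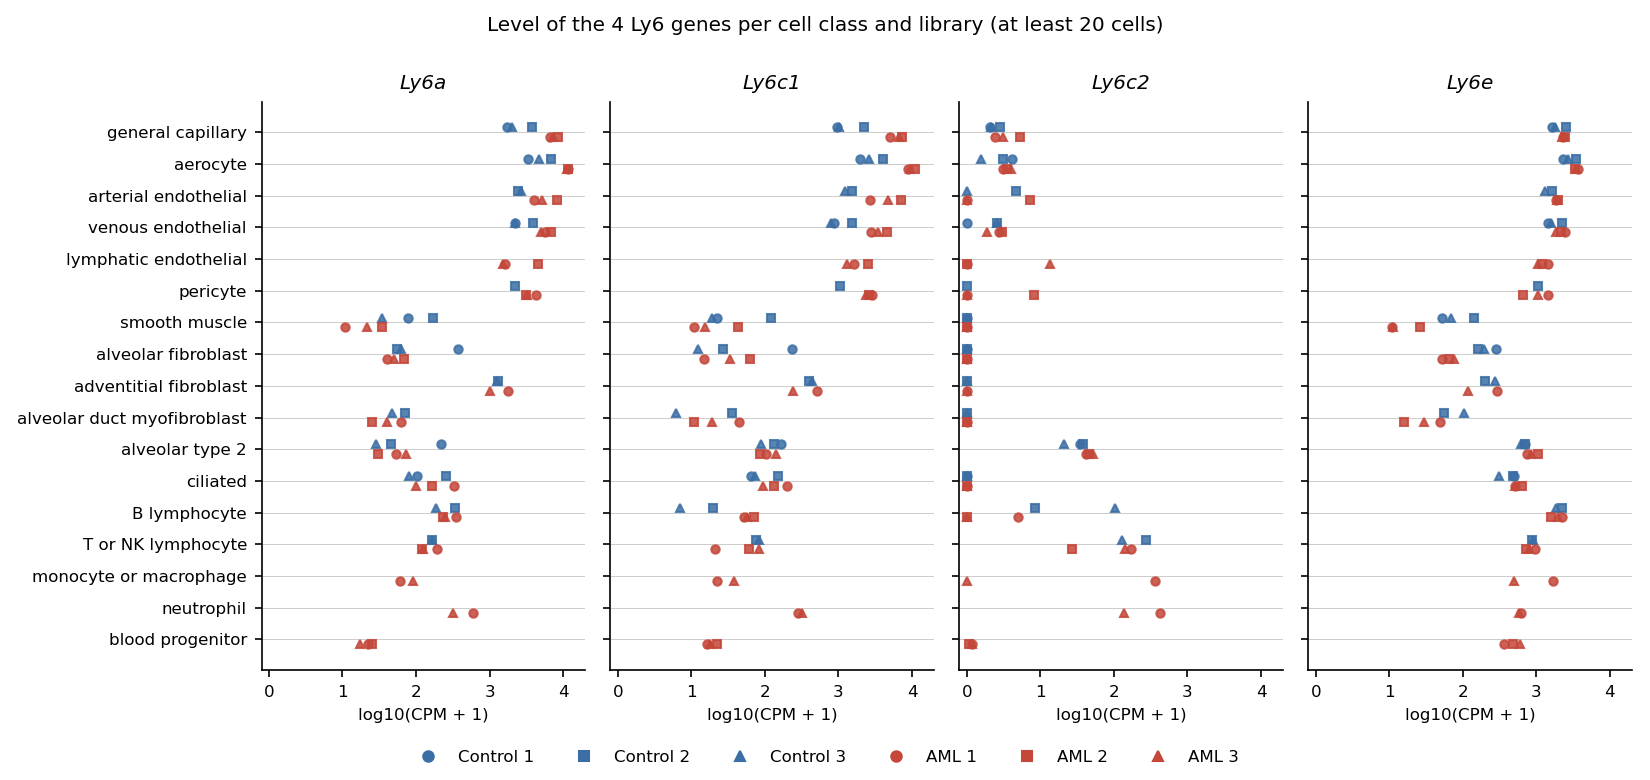
Level of each gene, as log10(CPM + 1) on the horizontal axis, per cell class and library with at least 20 cells (blue, Control; red, AML; marker shape, library number). In vessel classes the red points of Ly6a and Ly6c1 lie to the right of the blue ones, those of Ly6e are mixed in capillary and venous cells, and Ly6c2 is high only in blood cells and alveolar type 2 cells.

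In general capillary cells of leukaemic lungs Ly6c1 was several times higher. Its level was 959.6, 2249 and 1018 CPM in Control 1, 2 and 3 and 5078, 7289 and 6618 CPM in AML 1, 2 and 3. The highest Control, Control 2, lay below the lowest AML library, and Control 2 was above the other Controls for Ly6a and Ly6e too. The fitted log2 change was 2.17 ± 0.33 (SE), or 4.51-fold. Ly6a had 1741, 3734 and 2013 CPM in Control lungs and 6713, 8558 and 7195 CPM in leukaemic lungs, again without overlap, a log2 change of 1.59 ± 0.30, or 3.01-fold.

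Ly6e did not follow them in this class. It was at 1655, 2495 and 1808 CPM in Control lungs and at 2301, 2474 and 2237 CPM in leukaemic lungs, with Control 2 above all 3 of them, and the log2 change was 0.24 ± 0.22. Ly6c2 was at 1.095, 1.866 and 1.16 CPM against 1.445, 4.375 and 2.133 CPM, from 25 UMIs in 2835 Control cells and 27 UMIs in 4079 AML cells, with a log2 change of 0.49 ± 0.51.

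In edgeR's quasi-likelihood fit over all genes, Ly6a and Ly6c1 passed the threshold that is termed called here (Benjamini-Hochberg adjusted p under 0.05), both higher. The genes were selected on this contrast, so neither these calls nor their persistence with libraries left out is a test of them. Among all 11036 genes tested 3.63% were called, 1.58% higher and 2.06% lower, and 13.8% lay higher and 13.9% lower in AML with no overlap (27.7% together); nothing is read from these shares. Without AML 2 or without AML 3 Ly6a was no longer called (log2 change 1.47 and 1.61), and Ly6c1 was. The sum of 6 mesenchymal markers was also higher in this class, 172 to 216 CPM in Control lungs and 482 to 1060 in leukaemic lungs, with 1 of the 6 higher and 5 lower on average in AML; its part in the result was not tested. Epithelial (16.4 to 19.7 against 11.7 to 25.9 CPM) and haematopoietic markers (2.41 to 6.57 against 1.46 to 5.69 CPM) had overlapping ranges.

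The difference was present within clusters. In cluster 4, which every library shared, Ly6c1 ranged over 1005 to 2318 CPM in Control lungs and 5132 to 6248 CPM in leukaemic lungs, a ratio of means of 3.89. That cluster held 175, 1137 and 844 cells in Control 1, 2 and 3 and 1165, 26 and 68 in AML 1, 2 and 3. In the same cluster Ly6a ranged over 1992 to 3844 and 6845 to 8402 CPM, a ratio of 2.81. Cluster 3, whose AML cells had few UMIs (medians of 1080.5 to 1407.5), had lower levels of both genes than cluster 4 in every library, with ratios of 3.23 for Ly6c1 and 1.87 for Ly6a. Only in Control 2 did cluster 7 hold at least 20 Control cells, and its 23 cells there had 3097 CPM of Ly6c1, above clusters 3 and 4 of that library (1202 and 2318 CPM).

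The unnamed clusters near the general capillary class gave similar values. In cluster 2, led by Esm1, Ly6c1 was at 1026 to 1984 CPM in 3 Controls and at 4343 and 5016 CPM in AML 1 and AML 3, a ratio of 3.45. Cluster 12 had 0, 2 and 3 cells in Control lungs and 72, 1845 and 387 in AML 1, 2 and 3, so the 202 named general capillary cells of AML 2 were a small part of its capillary cells. Its AML cells reached 7327 to 7769 CPM of Ly6c1 and 8601 to 9321 CPM of Ly6a. With clusters 2, 5 and 12 added to the class, an alternative chosen after the data were seen, Ly6c1 was 4.65-fold and Ly6a 2.98-fold higher. Both were called, as were 320 of the 11684 genes tested, and Ly6e, 1.12-fold higher, was not. The genes were selected on this contrast, so these calls are a description.

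**Figure D2:**
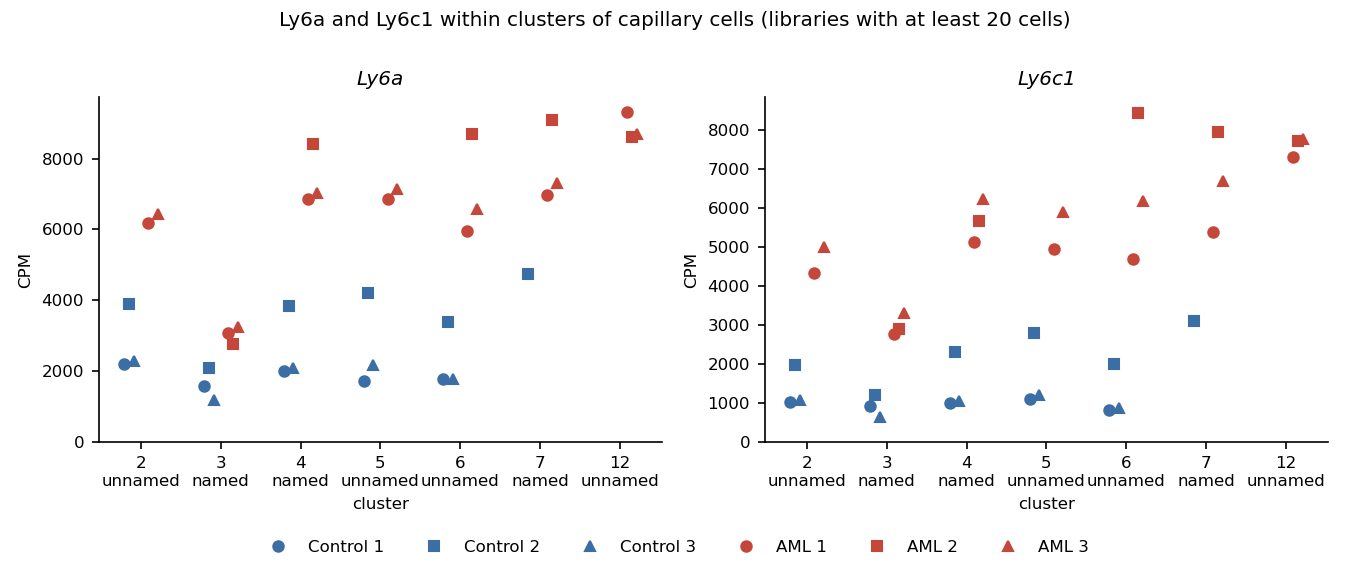
Level in CPM of Ly6a and Ly6c1 in clusters of capillary cells, 1 point per library with at least 20 cells (blue, Control; red, AML; shape, library number; clusters 3, 4 and 7 form the named general capillary class). In each cluster with points of both groups the AML points lie above the Control points, and among the AML points those of cluster 3 are the lowest.

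At equal depth the higher level was a shift of most cells and not a few very high ones. Each cell was thinned to 1500 UMIs, which left out 99 of 2835 Control and 524 of 4079 AML general capillary cells. A median cell then had 1, 3 and 1 UMIs of Ly6c1 in Control 1, 2 and 3 and 7, 10 and 9 in AML 1, 2 and 3. The 10th percentile of AML cells, 3 to 4 UMIs, was at or above the median of every Control. The share of thinned cells with at least 1 Ly6c1 UMI was 73.1 ± 12.1% in Control lungs and 99.3 ± 0.80% in leukaemic lungs (n = 3 each; unthinned, 90.03 ± 4.81% and 98.2 ± 1.04%). In blood progenitors, whose Ly6c1 level lay below that of free RNA, that share was 3.23 ± 0.73% after thinning and 20.6 ± 0.16% before; the median depths were 23404 UMIs per cell there and 3115 in AML general capillary cells.

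Ly6a and Ly6c1 tended to be high in the same cells. Spearman's rank correlation between their thinned UMIs was 0.27, 0.38 and 0.30 over the 461, 1304 and 971 cells of the Controls and 0.47, 0.56 and 0.40 over the 1484, 157 and 1914 cells of the AML libraries. Cells of 1 library share its free RNA, and counts per cell were lower in the Controls.

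**Figure D3:**
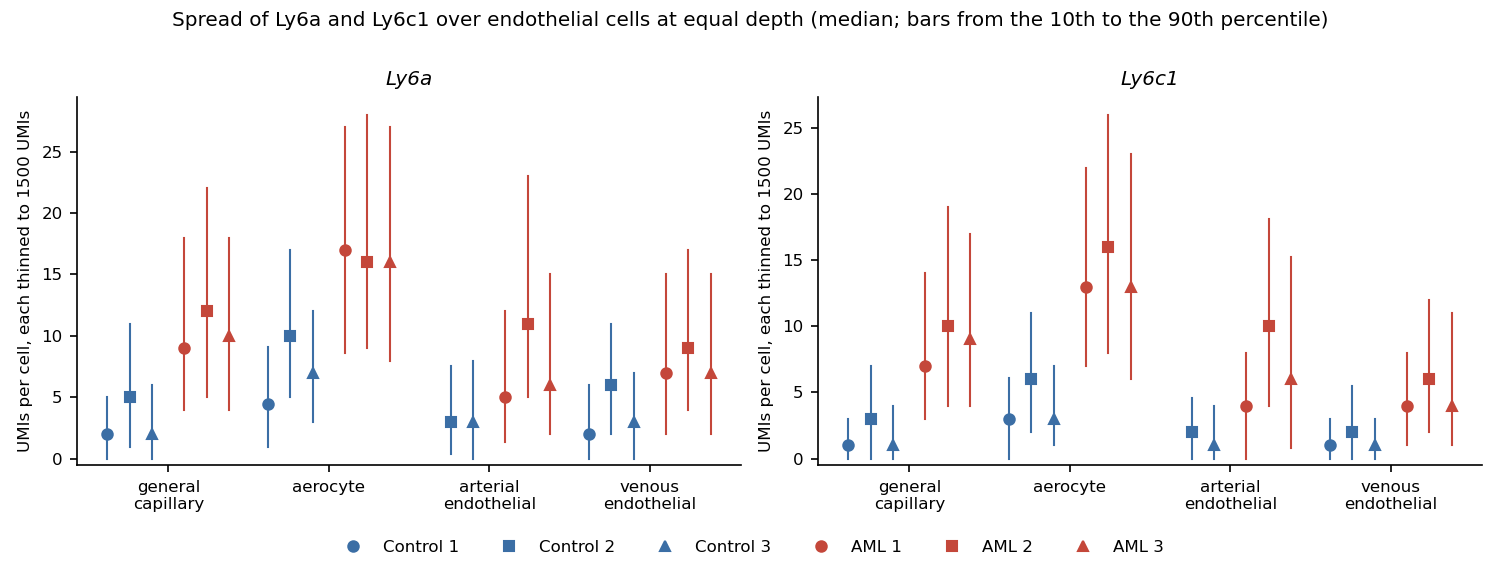
UMIs per cell of Ly6a and Ly6c1 in endothelial classes after each cell was thinned to 1500 UMIs; points are library medians and bars run from the 10th to the 90th percentile of cells (blue, Control; red, AML; shape, library number). In general capillary cells the medians of Ly6c1 are 1 to 3 UMIs in Control lungs and 7 to 10 in leukaemic lungs.

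Aerocytes, the class with the highest levels, had the same pattern. Ly6c1 was at 1968, 4083 and 2578 CPM in Control lungs and 8889, 11110 and 9373 CPM in leukaemic lungs, a log2 change of 1.80 ± 0.27, or 3.49-fold. Ly6a was at 3286, 6794 and 4671 CPM against 11760, 11780 and 11370 CPM, a log2 change of 1.28 ± 0.25, or 2.42-fold. Neither gene had overlapping groups, and the AML libraries lay close together for Ly6a. Ly6e overlapped, with 2308, 3472 and 2714 CPM against 3640, 3328 and 3423 CPM (log2 change 0.33 ± 0.21).

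Of the 4 genes 3 passed the low-count filter in aerocytes, and Ly6a and Ly6c1 were called; aerocytes too served to select the genes, so these calls are a description. In this class 2.75% of 8980 genes were called, 0.991% higher and 1.76% lower. Of all genes 22.4% did not overlap, 9.52% being higher and 12.9% lower in AML. As a description, leaving out AML 2 or AML 3 ended the call of Ly6a (log2 change 1.24 and 1.31) and not that of Ly6c1. After thinning, 92.5 ± 5.47% of Control and 99.6 ± 0.36% of AML aerocytes had a Ly6c1 UMI, so in this class the difference lay in the number of UMIs per cell. Median thinned cells had 3 to 6 Ly6c1 UMIs in Control lungs and 13 to 16 in leukaemic lungs. The list of blood cell markers (17 genes) summed to 2130 CPM in Control 1 and to 440 to 512 CPM in the other 5 libraries. Gata2, a member of that list, alone had 442 ± 91.2 CPM in Control and 403 ± 34.5 CPM in AML aerocytes. Most of the AML sum, 474 ± 36.1 CPM, was therefore Gata2.

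Venous endothelial cells, which line the vessels that drain the capillaries, had 858, 1544 and 794.9 CPM of Ly6c1 in Control lungs and 2805, 4503 and 3405 CPM in leukaemic lungs. That is a log2 change of 1.81 ± 0.32, or 3.51-fold, with no overlap. Ly6a was at 2215, 3900 and 2196 CPM against 5610, 6855 and 5008 CPM (log2 change 1.14 ± 0.29), also apart. Ly6e was at 1458, 2206 and 1559 CPM against 2418, 2135 and 1827 CPM, with overlap. edgeR called 0% of 8731 genes in this class, although 1043 had an unadjusted p under 0.05 and 18.6% did not overlap (7.87% higher and 10.7% lower in AML), and DESeq2 called 106 genes, Ly6a and Ly6c1 among them.

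Arterial endothelial cells were fitted only with the minimum lowered to 15 cells per library after the counts were seen, since Control 1 had 18. Ly6c1 was at 1084, 1508 and 1224 CPM in Control lungs and at 2697, 7114 and 4713 CPM in leukaemic lungs, a log2 change of 1.93 ± 0.33, or 3.81-fold. It was called, as were 0.603% of the 5477 genes tested (0.292% higher, 0.31% lower); 18.4% did not overlap, 9.2% higher and 9.24% lower. The call was lost without Control 1, without AML 2 or without AML 3 (log2 change 1.83, 1.56 and 1.95). Ly6a was at 1992, 2466 and 2674 CPM against 4057, 8296 and 5231 CPM, apart but not called. Ly6e was at 1147, 1628 and 1301 CPM against 1856, 1993 and 1883 CPM, apart by little (log2 change 0.49 ± 0.25) and not called.

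Lymphatic endothelial cells, which carry tissue fluid, reached 20 cells only in AML libraries. They had 1616, 2528 and 1299 CPM of Ly6c1 there and 1616, 4520 and 1512 CPM of Ly6a, below the level of every AML library of the general capillary class. After thinning, 31.1 ± 5.36% of AML lymphatic cells had a Ly6c1 UMI, against 99.3% of general capillary cells. Ly6e was detected in more of them, 75.3 ± 5.48%.

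**Figure D4:**
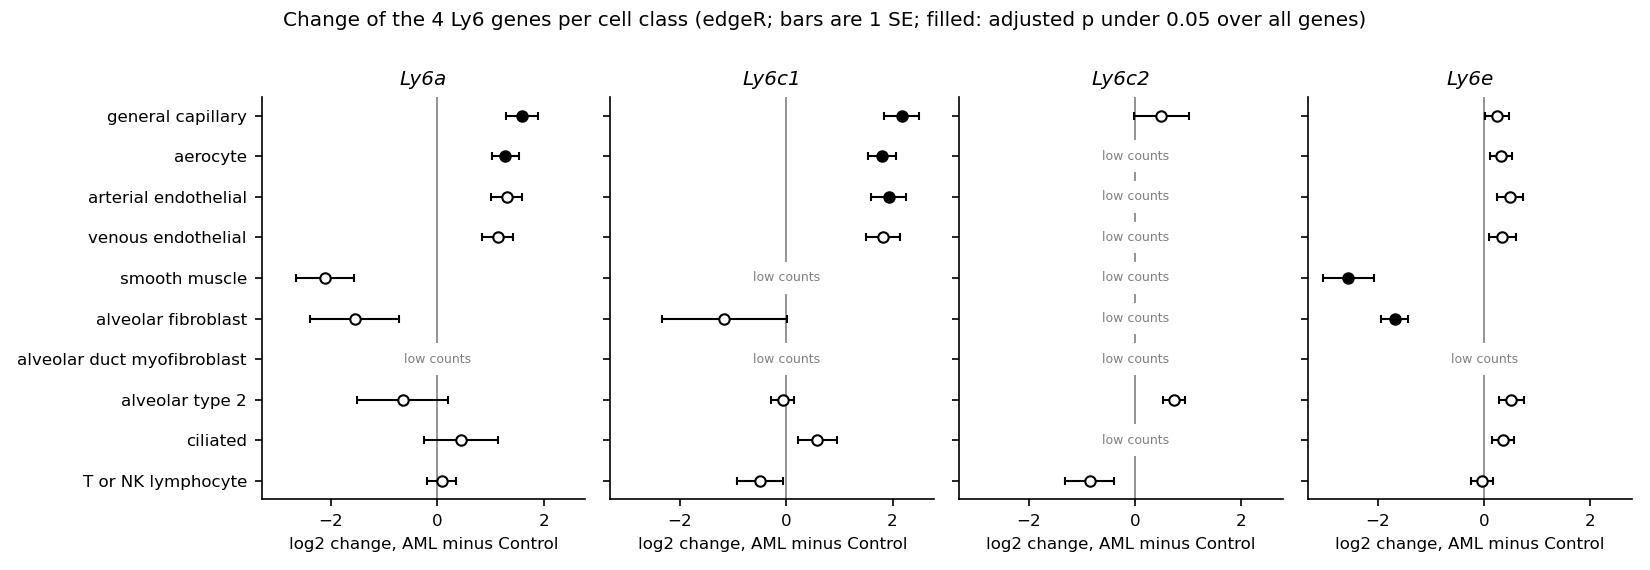
Fitted log2 change, AML minus Control, of each gene per cell class (points, with bars of 1 SE; filled points were called by edgeR at an adjusted p under 0.05; low counts, the gene did not pass the filter). Ly6c1 and Ly6a lie to the right of 0 in the 4 vessel classes, and Ly6e lies to the left in smooth muscle and alveolar fibroblasts.

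Ly6e was lower in alveolar fibroblasts and smooth muscle of leukaemic lungs. Alveolar fibroblasts, the lipid-bearing fibroblasts of the alveolar wall, had 280.9, 157.7 and 192.9 CPM in Control lungs and 50.76, 64.33 and 73.98 CPM in leukaemic lungs, a log2 change of -1.69 ± 0.25, or 3.22-fold lower. It was the only called gene of the 3 that passed the filter, where 3.46% of 6273 genes were called, 1.24% higher and 2.22% lower. Of these genes 21.1% did not overlap, 9.87% higher and 11.2% lower. Endothelial marker RNA (6 genes) was likewise lower in this class, at 807, 109 and 404 CPM in Control lungs and 43.8, 77.0 and 79.0 CPM in leukaemic lungs, and 0 of those 6 markers were at 0 in all libraries. Ly6e was called in each of the 18 alternatives run for this class, with a log2 change between -1.95 and -0.91. Of 8 vessel genes tested there 3 fell and 0 rose: Cldn5, of tight junctions, Ramp2, a receptor partner for adrenomedullin, and Cd34 (4.86-, 3.8- and 3.49-fold, edgeR adjusted p = 0.0135, 0.0183 and 0.00261), Cldn5 not without AML 2 and Ramp2 not without any 1 of the AML libraries. The part of endothelial RNA in the result was not tested.

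Ly6a and Ly6c1 in alveolar fibroblasts turned on Control 1. Ly6a was at 370.8 CPM there, at 54.28 and 61.28 CPM in the other Controls, and 39.22 to 67.96 CPM were measured in leukaemic lungs. Ly6c1 was at 229.2 CPM in Control 1, at 25.85 and 11.35 CPM in the other Controls and at 13.84 to 60.71 CPM in leukaemic lungs. Control 1 also had the highest endothelial marker RNA of the class.

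In smooth muscle, the contractile cells of vessel and airway walls, Ly6e was at 51.12, 142.9 and 67.33 CPM in Control lungs and 9.996, 25.24 and 10.23 CPM in leukaemic lungs, a log2 change of -2.56 ± 0.48. It was called, as were 1.07% of the 5422 genes tested (0.314% higher, 0.756% lower), and 17% did not overlap (5.55% higher, 11.4% lower). Ly6a was at 76.69, 168.3 and 33.67 CPM against 9.996, 33.65 and 20.47 CPM, narrowly apart and not called, with a log2 change of -2.11 that became 0.55 with doublets kept and 1.16 at a clustering resolution of 0.5. AML levels of both genes were near those of free RNA. Endothelial markers were lower here too, 202 to 471 CPM in Control lungs and 98.2 to 139 in leukaemic lungs. Among genes of the vessel list, Cdh5, the adhesion molecule of endothelial junctions, was 40.7-fold lower in AML smooth muscle (edgeR adjusted p = 8.37e-05), from 53.5 ± 19.3 to 0.682 ± 1.18 CPM, a call lost with doublets kept and at a clustering resolution of 0.5. The part of endothelial RNA was not tested here either.

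The Ly6e result in smooth muscle depended on the cells taken. With doublets kept the log2 change was -0.002 and at a clustering resolution of 0.5 it was -0.10. The call was also lost without Control 2 (log2 change -1.90) and with equal numbers of cells per library (-2.44).

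Alveolar duct myofibroblasts, contractile cells at the rims of the alveoli, were fitted at the lowered minimum of 15 cells, but none of the 4 genes passed the low-count filter. There 1.45% of 3576 genes were called (0.755% higher, 0.699% lower) and 20% did not overlap (8.67% higher, 11.4% lower). Ly6e had 59.96 ± 40.2 CPM in Control lungs and 30.57 ± 16.8 CPM in leukaemic lungs, with overlap.

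Pericytes, the mural cells of capillaries, had high levels that accompanied endothelial RNA. In the AML libraries they had 4216, 3157 and 3200 CPM of Ly6a and 2860, 2615 and 2367 CPM of Ly6c1. In Control 2, the only Control with at least 20 pericytes, they had 2185 and 1057 CPM. Endothelial markers summed to 4190 to 5940 CPM in those AML pericytes and 4230 CPM in Control 2, against 8120 to 11200 CPM in general capillary cells. Only 45.7 ± 28.9% of AML pericytes had a Ly6a UMI, a share that differed widely between libraries. How much of the level belonged to pericytes was not tested.

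Adventitial fibroblasts kept high Ly6a in both groups. The 2 Controls of at least 20 cells had 1293 and 1262 CPM and AML 1 and AML 3 had 1792 and 1025 CPM, so the groups overlapped. Their endothelial markers summed to 29.0 to 340 CPM, so Ly6a was above them in each of these libraries. Ly6c1 was at 400.5 and 438.0 CPM against 516.1 and 243.3 CPM. No test was made, since no group had 3 such libraries.

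Alveolar type 2 cells, which make surfactant, were the one non-blood class with clear Ly6c2. It was at 33.83, 36.49 and 19.95 CPM in Control lungs and 41.31, 44.86 and 50.41 CPM in leukaemic lungs, apart, with a log2 change of 0.73 ± 0.21 that was not called. In this class 1.37% of 10080 genes were called (0.605% higher, 0.764% lower) and 24.2% did not overlap (7.3% higher, 16.9% lower). Free RNA would carry at most 0.138 CPM. UMIs of Ly6c2 were found in 14.3 to 44.3% of Control and 28.8 to 34.1% of AML cells of the class, with at most 17 in a cell. Those shares are unthinned, and the lowest and highest came from Control 1 and Control 2, with median depths of 2623 and 21383.5 UMIs per cell. After thinning the shares were 3.28 ± 2.32% in Control lungs and 5.82 ± 1.39% in leukaemic lungs. Ly6c1 was at 128.0 ± 39.8 and 109.2 ± 29.0 CPM, with overlap. Ly6e was at 692.8, 693.5 and 620.5 CPM against 749.3, 1037 and 833.4 CPM, apart, with a log2 change of 0.51 ± 0.23 and not called. Of the Control 1 cells of this class, 223 were in a cluster that was almost all of that library.

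Ciliated cells of the airways had 493.4, 473.9 and 304.9 CPM of Ly6e in Control lungs and 515, 633 and 505.5 CPM in leukaemic lungs. They were apart by little, with a log2 change of 0.36 ± 0.21, and not called. In this class 0.599% of 6843 genes were called (0.263% higher, 0.336% lower) and 14.8% did not overlap (8.14% higher, 6.68% lower). No Ly6c2 UMI was counted in them. Alveolar type 1 cells, which line the alveoli, reached 20 cells only in Control 2 (111.9 CPM of Ly6a) and AML 3 (858.5 CPM), and no comparison was made.

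The share of Ly6c2 among the UMIs of both Ly6c copies was low in vessels and high in monocytes or macrophages and in T or NK lymphocytes. In general capillary cells Ly6c2 gave 25 of the Ly6c1 and Ly6c2 UMIs of the Controls, 0.0942% (exact 95% interval 0.0609 to 0.139%), and 27 in AML, 0.0325% (0.0214 to 0.0472%). With each cell counted equally these shares were 0.103% and 0.0638%, the latter outside its interval. All 25 of those Control UMIs were in cells that also had Ly6c1. Monocytes or macrophages were at the other end, with 89.2% Ly6c2 in 42 Control cells and 93.3% in 86 AML cells. By library, AML 1, 2 and 3 gave 104, 48 and 0 Ly6c2 UMIs in that class, beside 6, 0 and 5 of Ly6c1. T or NK lymphocytes had 75.3% and 73.8%, neutrophils 9.68% in 12 Control cells and 54.2% in 56 AML cells, B lymphocytes 61.3% and 2.78%, blood progenitors of AML 0.736%, and alveolar type 2 cells 19.1% and 28.8%. Of the Ly6c2 UMIs behind the Control share of B lymphocytes, 14 were in 1 cell of Control 3. In alveolar type 2 cells the share was 17.0, 21.6 and 18.8% in Control lungs and 29.0, 34.5 and 26.3% in leukaemic lungs, which did not overlap. These intervals and pooled shares cover counting error only, and reads from the identical stretches may have been dropped or split by the authors' counting.

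Blood cells were few, and their Ly6 levels showed no common direction. T or NK lymphocytes, fitted at the lowered minimum of 15 cells, had 305.8, 276.4 and 128.9 CPM of Ly6c2 in Control lungs and 171, 26.3 and 138.9 CPM in leukaemic lungs. Their groups overlapped for Ly6c2, and none of the 4 genes was called; edgeR called 0 of 3253 genes there, 283 having an unadjusted p under 0.05, and 16.4% did not overlap (5.01% higher, 11.4% lower). In monocytes or macrophages of AML 1 Ly6c2 was at 364.2 CPM, with up to 34 UMIs in a cell, and in AML 3 it was at 0 in 23 cells. Neutrophils of AML 1 and AML 3 had 423.6 and 134.6 CPM of Ly6c2. B lymphocytes had 1604 to 2250 CPM of Ly6e over both groups.

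The blood progenitors of the AML libraries carried Ly6e and little else of the 4. Ly6e was at 362.6, 475.9 and 605.6 CPM in AML 1, 2 and 3. Ly6a was at 21.09, 24.2 and 16.08 CPM and Ly6c1 at 15.46, 20.96 and 16.87 CPM, each below what free RNA would carry in that library. Ly6c2 gave 9 UMIs in 2839 cells.

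Genes whose level followed each member over the 12 classes of the Control lungs were named by Pearson's r of log2(CPM + 1), as a description over classes that share libraries. Closest to Ly6c1 were Ecscr, a surface protein of endothelial cells (r = 0.97), Fgd5, a guanine nucleotide exchange factor of vessels (0.97), Rapgef3, the cAMP-activated exchange factor of Rap (0.95), Gm15902 (0.95) and Hdac7, a histone deacetylase (0.95). For Ly6a these were Gm16046 (0.96), Gngt2, a G protein subunit (0.93), Nck1, an adaptor protein (0.92), Gm15902 (0.92) and Tbkbp1, an adaptor that binds the kinase TBK1 (0.90). The r of Ly6a with Ly6c1 was 0.90, and that of Ly6e with Ly6a 0.70.

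Ly6e was followed by Trim25, a ubiquitin ligase of RNA sensing (r = 0.93), Cd38, a surface enzyme of lymphocytes and vessels (0.92), Jak3, a cytokine receptor kinase (0.92), Gm9887 (0.92) and Ccdc12 (0.91). Ly6c2 was followed by Bcl2a1b, a survival factor of blood cells (0.97), Arhgap45 (0.95), AA467197 (0.95), Ccl5, a chemokine of T and NK cells (0.94), and Il18rap, a receptor chain for interleukin 18 (0.94). With AML libraries in place of the Controls, over 17 classes, 0 of the 5 genes were found again for Ly6a, Ly6c1 and Ly6e and 1 for Ly6c2. With Spearman's rho over the Control classes 2 were found again for Ly6a, Ly6c1 and Ly6e and 0 for Ly6c2. These names therefore depend on the measure, and on the libraries or the classes, which changed together.

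Few other genes of the same chromosome 15 locus were abundant enough to test. Of the 18 listed, Gpihbp1, the protein that carries lipoprotein lipase to the capillary surface, was the 1 tested in general capillary cells. It was at 1650 ± 392 CPM in Control lungs and 2240 ± 299 in AML (log2 change 0.45 ± 0.24, edgeR adjusted p = 0.311). In arterial cells it rose 4.74-fold, from 132 ± 59.9 to 632 ± 81.3 CPM (edgeR adjusted p = 0.00299). In alveolar fibroblasts it fell 6.59-fold, from 58.1 ± 45.9 to 7.86 ± 2.85 CPM (edgeR adjusted p = 0.00725), beside the lower endothelial RNA there and not without Control 1. Lypd2, another gene of the locus, rose 1.99-fold in ciliated cells (edgeR adjusted p = 0.00797), but not without Control 2 or AML 3. In alveolar type 2 cells Lypd2 was lower in AML, at 73.6 ± 36.3 CPM in Control lungs and 2.5 ± 1.48 in leukaemic lungs. Its log2 change there was -4.82 ± 0.81 and not called (edgeR adjusted p = 0.0788).

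Relatives outside the locus that share the Ly6 fold, and genes of the GPI anchor, were counted next. Of 19 listed relatives 3 were tested in general capillary cells and 0 were called, among them Plaur, the urokinase receptor, at 87.9 ± 23.0 and 141 ± 45.4 CPM (log2 change 0.65 ± 0.26, edgeR adjusted p = 0.186). In venous cells, where no gene was called, Cd59a, an inhibitor of complement, was at 24.7 ± 0.924 and 90.9 ± 40.1 CPM (log2 change 1.93 ± 0.34, edgeR adjusted p = 0.0634). Of 30 genes of GPI anchor synthesis and attachment 27 were tested in general capillary cells and 0 were called, 4 having an unadjusted p under 0.05. Their median log2 change was 0.05, beside -0.004 over all genes. In aerocytes the median of 22 such genes was -0.04 and 0 were called.

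Many listed interferon-induced genes fell in general capillary cells and some in aerocytes, and none rose in either. Over all genes tested 2.06% were called lower in general capillary cells and 1.76% in aerocytes. The lists were chosen with earlier results of these data known, so their counts are a description. Of 25 genes induced by interferon gamma 23 were tested in general capillary cells, where 13 fell and 0 rose, with a median log2 change of -1.49 beside -0.004 over all genes. Among them Tgtp1, an immunity-related GTPase, fell 6.78-fold (edgeR adjusted p = 0.0118), and the guanylate-binding proteins Gbp4, Gbp6 and Gbp8 fell 5.53-, 5.52- and 4.36-fold (edgeR adjusted p = 0.0358, 0.00702 and 0.0134). The count of 13 was 2 without Control 1, 4 without Control 3, 3 without AML 2 and 3 without AML 3. Of 30 type I interferon response genes in the tables, 28 were tested, 6 fell and 0 rose, with a median of -0.88. Ifi44 fell 3.68-fold (edgeR adjusted p = 0.00318), and Rtp4 and Oasl2, of antiviral response, fell 2.49- and 2.22-fold (edgeR adjusted p = 0.0246 and 0.0318). That count was 3 without Control 2 or Control 3, 16 without AML 1 and 1 without AML 2 or AML 3.

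Of the 14 interferon receptor and signalling genes 0 rose in general capillary cells. Stat2, a transcription factor of the type I interferon signal that also stands in the type I list, fell 1.87-fold there, from 63.0 ± 11.5 to 32.7 ± 9.25 CPM (edgeR adjusted p = 0.0306), but did not pass without Control 1, without AML 2 or without AML 3. In aerocytes 4 of 18 interferon gamma genes fell, Gbp4 by 3.29-fold, Gbp7 by 2.82-fold, Irgm2 by 2.28-fold and Igtp by 2.16-fold (edgeR adjusted p = 0.00342, 0.00728, 0.0155 and 0.0477). The interferon gamma count was 7 without AML 1, 1 without AML 2 and 0 without AML 3. Venous cells had a median log2 change of -1.43 for 19 interferon gamma genes, of which edgeR called 0 and 14 had an unadjusted p under 0.05. These comparisons share their Control libraries with those of the 4 Ly6 genes.

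Other surface and junction genes of vessels were counted beside them. Of 18 such genes in general capillary cells 1 rose and 0 fell: Cd34, a sialomucin of vessels and blood stem cells, from 115 ± 11.4 to 224 ± 42.7 CPM (1.95-fold, edgeR adjusted p = 0.0177), though not without AML 2 or AML 3. The median of the 18 was 0.11. In aerocytes Kdr, the main receptor for vascular endothelial growth factor, fell 2.07-fold (edgeR adjusted p = 0.00818), again not without AML 2 or AML 3, and 0 of the 17 tested rose. Dissociation stress genes gave 2 lower of 15 in general capillary cells, the heat shock genes Hspa1b and Hspa1a (8.49- and 5.86-fold, edgeR adjusted p = 0.00167 and 0.00373). Both were also lower in aerocytes (24.6- and 19.4-fold, edgeR adjusted p = 0.0125 and 0.00168) and smooth muscle (7.08- and 4.62-fold, edgeR adjusted p = 1.59e-05 and 8.37e-05). The same pair was lower in alveolar fibroblasts (6.51- and 2.19-fold, edgeR adjusted p = 0.023 and 0.041) and arterial cells (3.5- and 4.32-fold, edgeR adjusted p = 0.0447 and 0.0114). Hspa1b fell 9.87-fold in ciliated cells and Hspa1a 6.1-fold in alveolar type 2 cells (edgeR adjusted p = 1e-04 and 0.00513). In aerocytes neither passed without Control 1, nor Hspa1b without Control 3 or AML 2. In arterial cells neither passed without AML 2 or AML 3, nor Hspa1b without Control 1 or Control 2. In alveolar fibroblasts neither passed without any 1 of the AML libraries, nor Hspa1a without Control 1 or Control 2, and Hspa1a in alveolar type 2 cells did not pass without AML 2 or AML 3. The part of handling stress in the Ly6 values of these classes was not tested. Of blood cell markers in general capillary cells, the platelet chemokines Pf4 and Ppbp fell (4.72- and 4.64-fold, edgeR adjusted p = 0.00468 and 0.0141), Ppbp not without AML 3. The summed list, to which Gata2 belongs, was at 765, 998 and 3270 CPM in this class of Control lungs and 483 to 689 in leukaemic lungs.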

How the data were processed

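Non-haematopoietic lung cells of 3 Control and 3 AML libraries were profiled with the 10x Chromium Single Cell 3′ kit. The authors deposited raw UMI counts per gene and barcode, made with Cell Ranger on mm10; its version is 7.0.0 per the submitters' processing notes and 6.0.1 per the file headers. Of 28516 barcodes, 3415 with under 500 genes, 461 with over 15% mitochondrial UMIs and 895 doublets (top Scrublet scores, 0.8% per 1000 cells) were left out. Cells were clustered in scanpy 1.11.5 (2000 variable genes without the 4 Ly6 genes, 30 components, 15 neighbours, Leiden resolution 1.0) and classes named from markers. Counts were summed per class and library with at least 20 cells and tested with edgeR 4.0.16 (TMM, low-count filter, quasi-likelihood, Benjamini-Hochberg threshold 0.05 over all genes). Counts of the general capillary class (11036 genes) were simulated with the same dispersion (0.0326) for every gene and the same baseline in every library. In them 96% of 4-fold and 64% of 2-fold changes were recovered and 3% of calls were false. Real genes and libraries need not share a spread or baseline, so these rates hold for that setting only. Alternatives covered DESeq2 1.42.0, filters, clustering, depth, free RNA and each library left out. Since no source says that libraries came from separate animals, p-values reflect spread between libraries alone.

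The 4 genes and all gene lists were chosen with earlier results of these data known. Named beside the 4 genes were, per list and class, at most 4 called genes with the largest change, and the 5 genes most like each member; the uncalled genes named (Gpihbp1 and Plaur in general capillary cells) were chosen after their values were seen. Some genes that this rule names are not reported here. Intervals cover counting error only. The libraries held 19060359 to 46018541 UMIs. Feature identifiers matched GENCODE M21 for 99.61% of 32285 features.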

Additional observations from a re-analysis of the deposited data

Results flagged for a closer look

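Some groups of libraries lay apart in opposite directions in different classes, and the difference between classes was not tested. The log2 change of Ly6a, AML minus Control, was 1.59 in general capillary cells, 1.28 in aerocytes, 1.14 in venous and 1.30 in arterial endothelial cells, with every AML library above every Control. In smooth muscle it was -2.11, with every AML library below, beside lower endothelial marker RNA there, but this direction depended on the cells taken, with 0.55 when doublets were kept and 1.16 at a clustering resolution of 0.5. Ly6e in smooth muscle was near 0 under the same settings (-0.002 and -0.10). The log2 change of Ly6e was -1.69 in alveolar fibroblasts and -2.56 in smooth muscle, and 0.51 in alveolar type 2, 0.36 in ciliated and 0.49 in arterial endothelial cells, each without overlap.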

How the results depend on the processing

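For the 4 Ly6 genes 29 fitted changes were each recomputed under the alternatives, 497 values in all, of which 435 kept direction and call, 11 lost the call, 26 gained it and 25 turned direction, all of changes that were not called under either setting. With doublets kept Ly6a turned to 0.446 in alveolar fibroblasts, 0.357 in alveolar type 2 cells and 0.547 in smooth muscle, Ly6c1 to 1.21, 0.53 and 1.62 in alveolar fibroblasts, alveolar type 2 cells and T or NK lymphocytes, and Ly6e to 0.034 in the last. At resolution 0.5 Ly6a in smooth muscle was 1.16. With equal cells Ly6c1 in alveolar type 2 cells was 0.055 and Ly6e in T or NK lymphocytes 0.062. With only clusters of at least 20 cells in every library Ly6a and Ly6c1 in alveolar type 2 cells were 0.357 and 0.057, and Ly6e in general capillary cells -0.025. With free RNA subtracted Ly6a in T or NK lymphocytes was -0.127. The other 11 turns came without single libraries, over which Ly6c1 ranged from -1.79 to 1.09 in alveolar fibroblasts, -0.30 to 0.091 in alveolar type 2 cells and -0.954 to 0.137 in T or NK lymphocytes. Ly6a ranged from -1.05 to 0.546 in alveolar type 2 cells, -0.201 to 1.11 in ciliated cells and -0.151 to 0.185 in T or NK lymphocytes, and Ly6e from -0.103 to 0.021 in the last. Of 780 values for 45 named genes of the fixed lists 640 kept both, 138 lost the call and 2 turned direction: at resolution 0.5 the log2 change in smooth muscle was 0.088 for Cd36 and 0.032 for Ramp2. Ly6c1 in venous cells gained the call with DESeq2 (1.82), without the low-count filter (1.80), with doublets kept (1.80), with the 4 genes among the clustering genes (1.86), at resolution 0.5 (1.84), with equal cells (1.79) and thinned (1.79); without single libraries it ranged from 1.56 to 2.21, called without Control 2 and without AML 1. Ly6a in general capillary cells ranged from 1.36 to 2.03 without single libraries.

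Among genes called, general capillary cells had 401, a count that was 1031 without the low-count filter, 221 at resolution 0.5, 126 with only clusters of at least 20 cells in every library and 2420 with a mitochondrial limit of 10%, and 49 to 632 without single libraries (49 without AML 3, 97 without AML 2, 205 without Control 3, 250 without Control 1, 632 without AML 1). The cause was not tested. With the replicate number as a block it was 670 and Ly6c1 in venous cells was called (1.84), but the labels give no shared source for a number, and deviations of same-numbered libraries correlated at 0.011, 0.029 and 0.001 in general capillary cells, where Control 1 and Control 2 matched their own number best and Control 3 matched AML 1. Depth limits Ly6c2 in vessels, where counts of 25 and 27 UMIs stand behind the general capillary values.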
